A study of Mus musculus with 6 samples.

Results

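The fatty acid elongase genes Elovl1 to Elovl7 were taken from RNA-Seq of inguinal white fat (iWAT), a depot under the skin that gains beige adipocytes in the cold. They were found by symbol, and all 7 were among the 16538 genes listed. The family was put forward because Elovl3 was known to be lower in one genotype, with an adjusted p of 0.0350 in the fit across all genes (limma), so the values of its members between genotypes are a description, and the calls given for them below restate that choice. The samples were 3 control and 3 AKO samples, each made of RNA pooled from 2 mice of 1 genotype. In AKO mice, Nrg4, which encodes the secreted hormone neuregulin 4, was deleted in adipocytes through a Cre recombinase driven by the adiponectin promoter. Control mice are called wild type in the labels and are fl/fl littermates in the paper, so that both groups may carry the floxed allele. All mice were chow fed and kept at 8°C, for 10 days by the labels and somewhat longer by the paper. Their age was not given for this experiment in the sources used here.

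Elongases lengthen fatty acids by a pair of carbons at a time in the membrane of the endoplasmic reticulum. An elongase joins malonyl-CoA to an acyl-CoA, and a reductase, a dehydratase and a further reductase complete the cycle. The elongases differ in the chains they accept. ELOVL1, ELOVL3 and ELOVL7 act on saturated and monounsaturated chains, ELOVL6 turns palmitoyl-CoA into stearoyl-CoA, ELOVL2 and ELOVL5 act on polyunsaturated chains, and ELOVL4 makes the longest chains of skin, retina and brain. In adipose tissue, Elovl3 is known as a gene of brown and beige fat that is induced by cold, and Elovl6 as a gene of fatty acid synthesis regulated by SREBP-1c.

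The catalytic site of every elongase holds a histidine box, in which a histidine codon is followed by 2 other codons and 2 more histidine codons. The stretch of 45 coding bases around the box is printed for the 7 genes to show how close Elovl3 and Elovl6 are at this site, with the 15 bases of the box in capitals. The sequences are from GENCODE M21 transcripts, and the positions are those of GRCm38, with each stretch within 1 coding exon.
Elovl1 (chr4:118431439-118431483, plus strand): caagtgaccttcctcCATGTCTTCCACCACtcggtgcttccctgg
Elovl2 (chr13:41189986-41190030, minus strand): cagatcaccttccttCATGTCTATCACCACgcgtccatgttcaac
Elovl3 (chr19:46134407-46134451, plus strand): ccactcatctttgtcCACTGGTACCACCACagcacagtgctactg
Elovl4 (chr9:83785075-83785119, minus strand): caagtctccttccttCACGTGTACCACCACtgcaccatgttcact
Elovl5 (chr9:77976835-77976879, plus strand): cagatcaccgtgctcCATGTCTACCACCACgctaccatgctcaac
Elovl6 (chr3:129633092-129633136, plus strand): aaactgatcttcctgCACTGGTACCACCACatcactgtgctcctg
Elovl7 (chr13:108274316-108274360, plus strand): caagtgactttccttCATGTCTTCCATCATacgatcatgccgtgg

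Each coding sequence held 1 in-frame box. The 15 bases were identical in Elovl3 and Elovl6 and differed by 1 to 5 bases among Elovl1, Elovl2, Elovl4, Elovl5 and Elovl7. Elovl3 differed from those 5 genes by 2 bases (Elovl4) to 7 bases (Elovl7). Over the whole coding sequence, the closest pairs were Elovl2 with Elovl5 (63.2% of aligned bases identical), Elovl1 with Elovl7 (62.1%) and Elovl3 with Elovl6 (55.5%). Elovl3 shared 40.1% to 44.0% of aligned bases with each of the other 5 genes, so that Elovl6 was its closest relative in the family. Exonic bases shared with another gene were few, at 0.506% for Elovl3 (with Pitx3), 0.529% for Elovl6 (with Gm35986) and 1.94% for Elovl1 (with Cdc20), all on the opposite strand.

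RNA-Seq counts the reads that align to each gene, and the values below are normalized counts, namely reads divided by a size factor for each sample and not by gene length. Depth was alike, at 17570335 to 18373707 reads on the listed genes in the 6 samples. Nrg4 itself, counted over the whole gene, had 3128, 3102 and 3092 normalized counts in control and 2577, 2627 and 2691 in AKO. The groups did not overlap, but the control mean was only 1.18-fold above the AKO mean (limma adjusted p = 0.298). The loss of Nrg4 from adipocytes that the genotype states is thus not seen in these counts beyond this difference. By qPCR, however, the paper found almost no Nrg4 mRNA left in iWAT of cold-acclimated AKO mice. Which part of the gene the counted reads came from was not tested. Adipocyte markers were abundant, with a summed value of 819887 to 838888 over 10 genes in control and 690583 to 791434 in AKO. Fewer adipocytes and less RNA per adipocyte cannot be told apart in whole tissue. Skeletal muscle markers (12 of 12 listed) summed to 177, 26607 and 14502 in control and to 19578, 74664 and 114615 in AKO, with 0 of the 12 markers at 0 in any sample. Mammary epithelial markers (8 of 8 listed) summed to 15.1 to 1250 in control and 138 to 1663 in AKO, and 4 of them were at 0 in at least 1 sample. Macrophage markers (8 of 8 listed) summed to 10072 to 14312 in control and 12492 to 17232 in AKO, with a higher mean log2 value in AKO for 8 of 8 (median difference 0.37, 0 called). Lymphocyte markers (8 of 8 listed) summed to 169 to 1049 in control and 150.4 to 1483 in AKO.

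Elovl3, whose protein elongates saturated and monounsaturated acyl-CoA, stood apart from the rest of the family in AKO iWAT. The normalized counts were 949, 1327 and 948 in control and 327, 307 and 393 in AKO. The genotypes were fully separated, and the lowest control sample was more than double the highest AKO sample. The control mean of 1075 ± 218 was 3.14-fold above the AKO mean of 342 ± 45.5 (SD, n = 3 each). On the log2(normalized count + 1) scale the difference was -1.64 (standard error 0.15, 95% confidence interval -1.99 to -1.29), rank 11 from the lowest among the 13855 genes whose mean reached 10. The part of the adipocyte, muscle and macrophage marker sums, which also differed between samples, in the Elovl3 value was not tested. The gene lies on chromosome 19 (46131897 to 46135694, plus strand) and has 4 exons in its principal transcript.

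Elovl6, the relative with the same histidine box, had no lower mean in AKO iWAT. It was the most abundant elongase, with 8239, 15342 and 12063 normalized counts in control and 12091, 21218 and 11931 in AKO. The groups overlapped, and replicate 2 was the highest of its group in both genotypes. The means were 11882 ± 3555 (SD, n = 3) and 15080 ± 5316 (SD, n = 3), a log2 difference of 0.34 (standard error 0.28, 95% confidence interval -0.30 to 0.97). Without AKO replicate 2 the difference was 0.06. Replicates differed in Elovl6 by 1.86 times from lowest to highest within control and by 1.78 times within AKO.

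Elovl5, which elongates polyunsaturated chains, was the most even member. It had 2785, 2935 and 2770.1 normalized counts in control and 2847, 2914 and 2629 in AKO. The ranges overlapped, and the log2 difference was -0.02 (standard error 0.06, 95% confidence interval -0.16 to 0.13). Elovl1, which makes saturated and monounsaturated very long chains in many tissues, had 739, 812 and 901 counts in control and 823, 756 and 853 in AKO. These also overlapped, with a log2 difference of -0.01 (standard error 0.09, 95% confidence interval -0.22 to 0.20).

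The remaining members were at low levels. Elovl7, a close relative of Elovl1, had 24.1, 22.6 and 27.4 normalized counts in control and 32.7, 51.7 and 31.8 in AKO. All AKO samples were above all control samples, the opposite side from Elovl3, and the log2 difference was 0.60 (standard error 0.26, 95% confidence interval 0.01 to 1.19). The SD was 2.49 in control, below the Poisson error of 5.04 counts, so this SD understates the error, and the difference was 0.37 without AKO replicate 2. That replicate also had the highest sums of mammary epithelial markers (1663) and of lymphocyte markers (1483), whose part in the value was not tested. Elovl4 had 4, 10 and 3 reads in control and 11, 6 and 5 in AKO, and the groups overlapped. Elovl2, an elongase known mainly from liver, brain and testis, had 1, 3 and 4 reads in control and 0 in each AKO sample. A count of 0 allows up to 3 reads per library, so a difference in Elovl2 was not detectable at this depth and no fold is given. These 2 genes were under the mean of 10 and entered no fit.

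**Figure D1:**
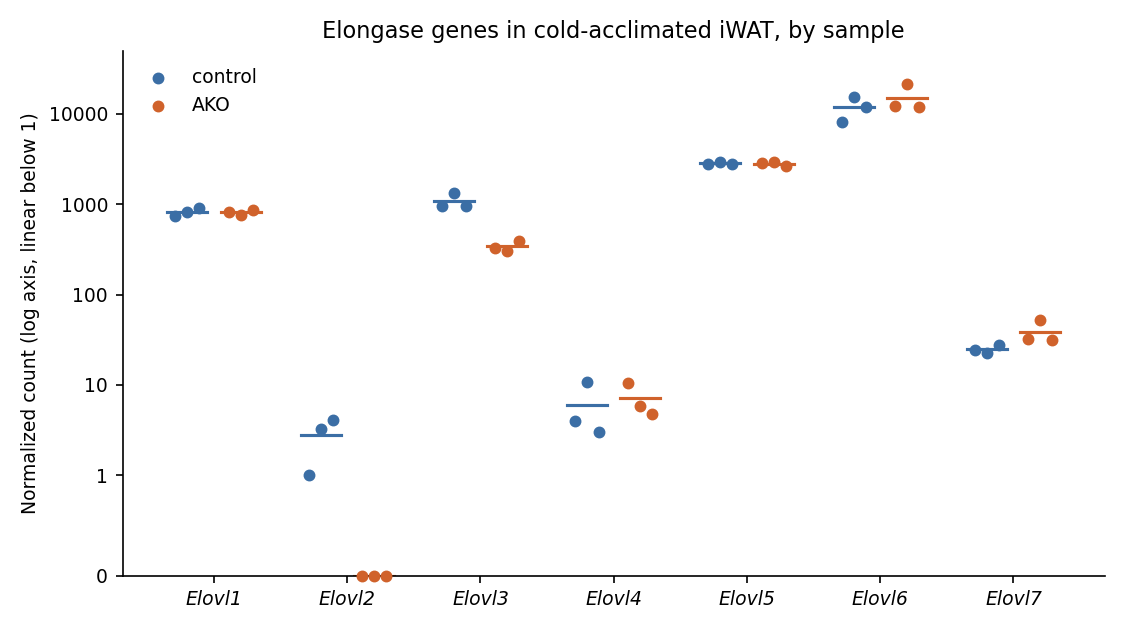
Normalized counts of the 7 elongase genes in the 3 control and 3 AKO samples on a log axis that is linear below 1, with points for samples and short lines for group means. Elovl3 has every AKO point (307 to 393) below every control point (948 to 1327), while the points of Elovl1, Elovl4, Elovl5 and Elovl6 overlap between groups and the Elovl7 points of AKO lie above those of control.

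Genotypes were separated without overlap for 2 of the 5 elongases in the fit (Elovl3 lower in AKO, Elovl7 higher). This held for 14.5% of all 13855 genes (8.31% on the lower and 6.14% on the higher side). Elovl2, outside the fit and this share, was also apart, on at most 4 reads in a control sample and 0 in AKO. An adjusted p under 0.05 was found for 1 elongase (Elovl3) by limma, beside 0.0144% of all genes (0.00722% on the lower side), and for the same elongase by DESeq2 on the recovered reads, beside 1.07%. By limma this held without control replicate 2 (adjusted p = 0.0301) and not without any other single sample (adjusted p = 0.0927 to 0.118). These counts rest on the contrast that put the family forward. The 4 other elongases in the fit had log2 differences from -0.02 to 0.60 (median 0.16), where the median over all genes was 0.01. The log2 value of Elovl3 minus the median of the other 6 members was 2.80, 3.26 and 2.57 in control and 0.98, 0.62 and 1.24 in AKO. These values were also separated, and their mean in AKO minus that in control was -1.93. Relative to each abundant relative, the log2 ratio of Elovl3 was lower in AKO by a similar amount, with a difference of -1.62 over Elovl5, -1.63 over Elovl1 and -1.98 over Elovl6.

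Levels of different elongases were compared as normalized counts per kilobase of annotated exon. Over the 6 samples, Elovl6 had 2096 ± 685 counts per kilobase (SD, n = 6) and was first in order. Elovl5 followed with 799 ± 31.8 (SD, n = 6), and the 2 genes did not overlap. In control, Elovl3 was the next with 544 ± 111 counts per kilobase (SD, n = 3), above Elovl1 with 300 ± 29.8 (SD, n = 3) in each sample. In AKO, Elovl3 had 173 ± 23.0 (SD, n = 3) and was below Elovl1 with 297 ± 18.3 (SD, n = 3) in each sample. Their order thus changed places between the genotypes. Elovl7 (7.90 ± 2.64, n = 6), Elovl4 (2.15 ± 1.11, n = 6) and Elovl2 (0.349 ± 0.458, n = 6) were far lower.

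Of the 6 neighbors in this order, 5 pairs had the same order in 6 of 6 samples. The order was read from these same samples of both genotypes, so it is given without a test. The mean log2 ratios were 1.33 for Elovl6 over Elovl5, 1.39 for Elovl5 over Elovl3, 5.25 for Elovl1 over Elovl7, 1.78 for Elovl7 over Elovl4 and 2.28 for Elovl4 over Elovl2. The last of these rests on at most 4 reads of Elovl2 and on the pseudocount, and the ranges of these 2 genes overlapped. Elovl3 over Elovl1 had a mean log2 ratio of 0.03 over the 6 samples, with the 3 control samples above 0 and the 3 AKO samples below. Per kilobase of the longest transcript in place of all exons, this mean was -0.49 and the other 5 ratios kept their direction.

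Elovl3 made up 17.0%, 16.0% and 13.8% of the summed elongase level per kilobase in control and 5.22%, 3.39% and 6.38% in AKO. The groups did not overlap, with means of 15.6% ± 1.63 and 4.997% ± 1.504 (SD, n = 3 each). Elovl6 made up 52.0% ± 6.01 in control and 63.6% ± 7.36 in AKO, and Elovl5 23.5% ± 4.11 and 22.5% ± 3.91 (SD, n = 3). The sum over the family was 2831 to 4199 counts per kilobase in control and 3123 to 4574 in AKO, so that these ranges overlapped. Without Elovl6, the sum was 1550 to 1813 in control and 1268 to 1287 in AKO, a separation that repeats that of Elovl3 itself (544 against 173 counts per kilobase).

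**Figure D2:**
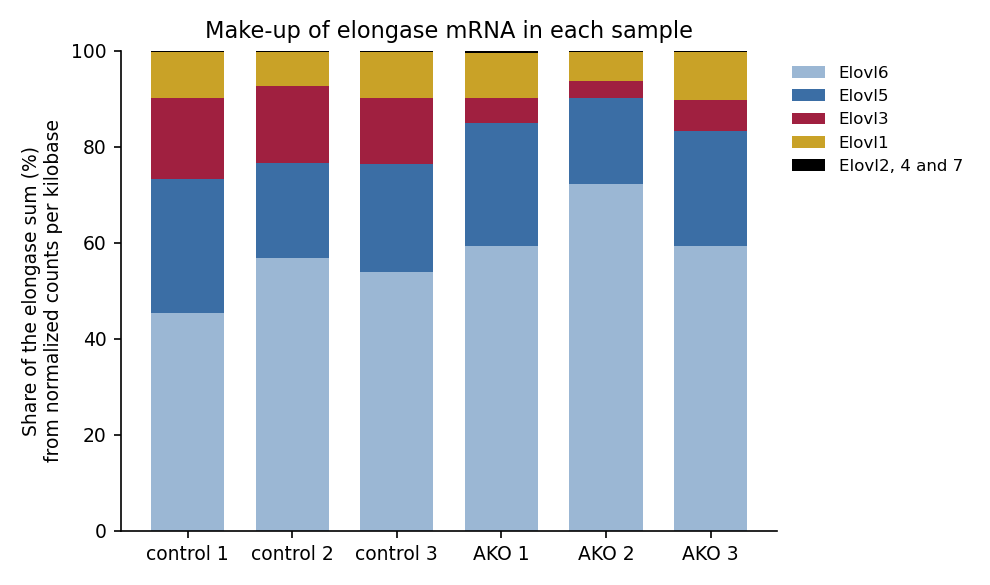
Share of each elongase in the summed elongase level of each sample, in percent, from normalized counts per kilobase of exon, with 1 stacked bar per sample. The Elovl3 segment spans 13.8% to 17.0% in the control samples and 3.39% to 6.38% in the AKO samples, and Elovl6 is the largest segment in each of the 6 bars.

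The other enzymes of the elongation cycle had log2 fold changes between -0.23 and 0.50. Of the 6 that were tested, 0 passed an adjusted p under 0.05 by limma or by DESeq2, and 2 had an unadjusted p under 0.05 (beside 9.1% of all genes), Hacd2 on the lower side (4.69% of all genes) and Hacd4 on the higher side (4.41%). Hsd17b12, the first reductase, had 7877, 10138 and 8657 normalized counts in control and 7881, 7913 and 7955 in AKO, and the groups overlapped. Tecr, the second reductase, also overlapped, with 5463, 7400 and 6720 counts in control and 6227, 7170 and 6863 in AKO. Hacd2, a dehydratase and the most abundant of the 4 Hacd genes, had 3504, 3942 and 3870 counts in control and 3262, 3059 and 3295 in AKO. Its groups did not overlap, and the log2 fold change was -0.23 ± 0.07 (standard error; limma adjusted p = 0.414). Hacd4, a dehydratase gene at a far lower level, had means of 70.4 ± 12.6 and 99.2 ± 11.0 (SD, n = 3), and a log2 fold change of 0.50 ± 0.17 (standard error; limma adjusted p = 0.492). The median log2 fold change over the 6 enzymes was -0.12.

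Genes that supply substrates to the elongases were also compared. Of 8 genes for citrate export, acetyl-CoA, malonyl-CoA and palmitate, 0 passed with either tool and 1 had an unadjusted p under 0.05, a share near the 9.1% of all genes. That gene was Mlycd, which encodes the decarboxylase that removes malonyl-CoA, with 1219 ± 132 normalized counts in control and 947 ± 37.5 in AKO (SD, n = 3; log2 fold change -0.36, adjusted p = 0.316 from limma). Fasn, the fatty acid synthase, had 280298, 436504 and 353285 counts in control and 342772, 438880 and 337472 in AKO, with overlap and a log2 fold change of 0.08 (standard error 0.21). Acly (0.49, standard error 0.32) and Me1 (0.13, standard error 0.23), which supply acetyl-CoA and NADPH, overlapped as well. With each sample left out, the log2 fold change ran from -0.08 to 0.23 for Fasn, from 0.16 to 0.80 for Acly and from -0.09 to 0.29 for Me1, so that the direction of Fasn and Me1 was not set. Of the 8 desaturase genes, 0 passed with either tool. Among them, 6 had a log2 fold change above 0, as had 7193 of all 13855 genes. An unadjusted p under 0.05 was found for 1 (Scd2, on the higher side), beside 4.41% of all genes on that side. Scd1, which desaturates the stearoyl-CoA made by ELOVL6, had overlapping groups at a log2 fold change of 0.25 ± 0.21 (standard error; limma adjusted p = 0.781). Scd2 had 5864 ± 762 counts in control and 7373 ± 713 in AKO (SD, n = 3), without overlap (log2 fold change 0.33, adjusted p = 0.484 from limma). Fads3 had a log2 fold change of 0.20 (standard error 0.13).

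Acyl-CoA synthetases activate long and very long chains before they can be elongated or oxidized. Of 9 tested, 0 passed by limma, 3 had an unadjusted p under 0.05 (2 lower and 1 higher, beside 4.69% and 4.41% of all genes), and 2 were called lower by DESeq2, beside 0.808% of all genes on that side. Slc27a2, a very long chain acyl-CoA synthetase, had 350.2, 491 and 270.4 normalized counts in control and 103, 147 and 130.2 in AKO. The highest AKO sample was below the lowest control sample, at a log2 fold change of -1.51 ± 0.22 (standard error). The adjusted p was 0.130 by limma and 1.5e-08 by DESeq2. Acsl5 had 2074 ± 302 counts in control and 1365 ± 111 in AKO (SD, n = 3), at a log2 fold change of -0.60 ± 0.11 (standard error). Its adjusted p was 0.227 by limma and 0.000146 by DESeq2. Acsl1, the main synthetase of adipocytes, and Slc27a1 overlapped, at log2 fold changes of -0.13 and -0.11. Acsl6, the gene on the higher side, had few counts, at 1.004, 6.45 and 4.07 in control and 4.80, 21.5 and 25.1 in AKO. Its groups overlapped, at a log2 fold change of 1.83 ± 0.75 (standard error; limma adjusted p = 0.534). The median over the 9 genes was -0.06.

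Peroxisomes take up very long chains and shorten them, the reverse of elongation. Of 9 peroxisomal genes for this route, 8 had a log2 fold change below 0 (median -0.19), as had 6662 of all 13855 genes. An unadjusted p under 0.05 was found for 4 of these 8, beside the 4.69% of all genes on the lower side. None passed by limma (smallest adjusted p = 0.205), and DESeq2 called Ehhadh and Abcd3 (2 of 9, beside 0.808% of all genes on the lower side). Ehhadh, the bifunctional enzyme, was at -0.58 ± 0.10 on the log2 scale (standard error; DESeq2 adjusted p = 7.8e-06). Abcd3, an importer of the peroxisomal membrane, was at -0.34 ± 0.09 (standard error; DESeq2 adjusted p = 0.0450). Hsd17b4, a further bifunctional enzyme of this route, was at -0.19 (standard error 0.06) without overlap, and Abcd2 was at 0.00 (standard error 0.12). Ceramide synthesis, which consumes the products of the elongases, had 9 tested genes, 0 called with either tool, 1 with an unadjusted p under 0.05 (Cers6, on the higher side) and a median of 0.02. Cers2, which uses very long chains, was at -0.13, Degs1 at 0.04 and Cers5 at 0.05.

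**Figure D3:**
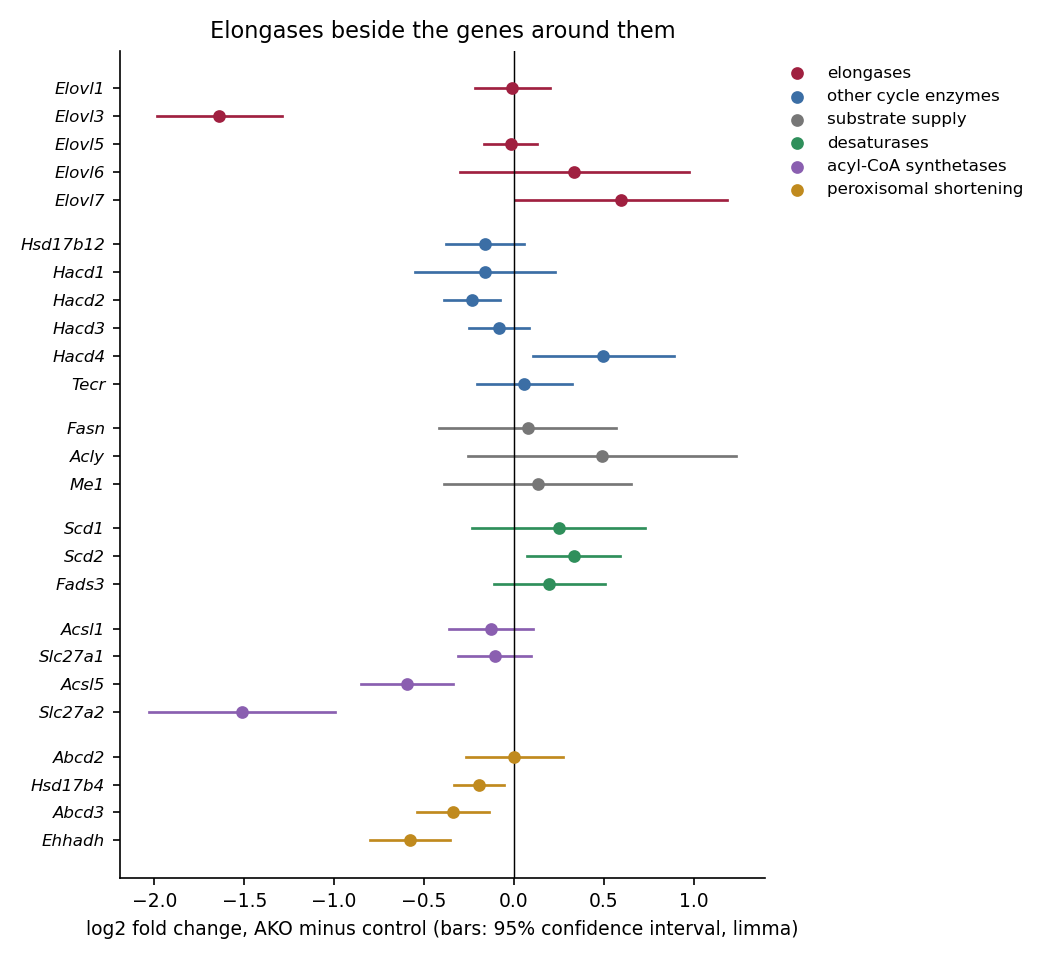
log2 fold changes (AKO minus control) of the 5 elongases in the fit and of genes around them, with points for estimates and bars for 95% confidence intervals from limma, grouped by color. Elovl3 (-1.64) and Slc27a2 (-1.51) lie farthest to the left, and the enzymes that complete the elongation cycle lie between -0.23 and 0.50.

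Regulators of elongase and lipid genes had log2 fold changes between -0.53 and 0.12. Of 13, 0 passed by limma and 1 was called lower by DESeq2, beside 0.808% of all genes on that side. This was Ppara, a nuclear receptor of fatty acid oxidation that also acts on Elovl3, with 1801, 2029 and 1228 normalized counts in control and 1297, 1064 and 1083 in AKO. Its groups overlapped, at -0.53 ± 0.18 on the log2 scale (standard error; limma adjusted p = 0.484, DESeq2 adjusted p = 0.0474). Srebf1, which encodes SREBP-1, had 13405 ± 63.97 counts in control and 13867 ± 230.4 in AKO (SD, n = 3), a log2 fold change of 0.05 (standard error 0.06). Its groups did not overlap, but the control SD was below the Poisson error of 118 counts, so this SD understates the error. Insig1, an inhibitor of SREBP processing, was at 0.12 (standard error 0.11), and Nr1d1, a clock repressor, at -0.09 (standard error 0.19). The median over the 13 genes was -0.05.

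Genes whose values over the 6 samples were most like those of Elovl3 were ranked by the root mean square difference of their log2(normalized count + 1) values, each centered on its own mean. The closest of all tested genes was Ucp1, the uncoupling protein that makes heat in brown and beige fat, at a root mean square difference of 0.12 (median over all genes 0.857). Ucp1 and Elovl3 put the 6 samples in the same order. Elovl3 had 52.6, 52.3 and 56.4 normalized counts per 1000 counts of Ucp1 in control and 60.5, 63.4 and 50.4 in AKO, so that this ratio overlapped between genotypes. Ucp1 was picked for its likeness to Elovl3 in these same samples, which makes an even ratio likely by the choice alone. The next were Gyk, a glycerol kinase (0.206), Cpn2, a subunit of carboxypeptidase N (0.212), Slc27a2 (0.237) and Acot11, an acyl-CoA thioesterase induced by cold in brown fat (0.244). Their log2 fold changes were -1.34 for Gyk, -1.59 for Cpn2 and -1.25 for Acot11, and these too follow from the way these genes were chosen. Ucp1 was the nearest gene under all 8 alternatives tried, and only Ucp1 and Cpn2 were among the nearest 5 in every one of them, with 3 of the 5 shared without control replicate 2, AKO replicate 2 or AKO replicate 3. The other elongases ranked from 5397 (Elovl5) to 13153 (Elovl7).

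Brown and beige fat genes as a list were lower in AKO for 17 of 18, beside 6662 of all 13855 genes, with a median log2 fold change of -0.70. Of the 18, 0 passed by limma (smallest adjusted p = 0.0703, for Ucp1), and 13 had an unadjusted p under 0.05, all on the lower side, beside 4.69% of all genes. DESeq2 called 10, all lower, and 112 of all genes (0.808%) on that side. Several were chosen by the study or were known from these samples, so the list is not independent evidence of its direction. Ucp1 had a log2 fold change of -1.75 (standard error 0.21), Fabp3 one of -2.10 (standard error 0.37) and Pdk4 one of -1.11 (standard error 0.19). Prdm16, a regulator of brown fat identity, was at -0.06 and Ebf2 at -0.04.

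**Figure D4:**
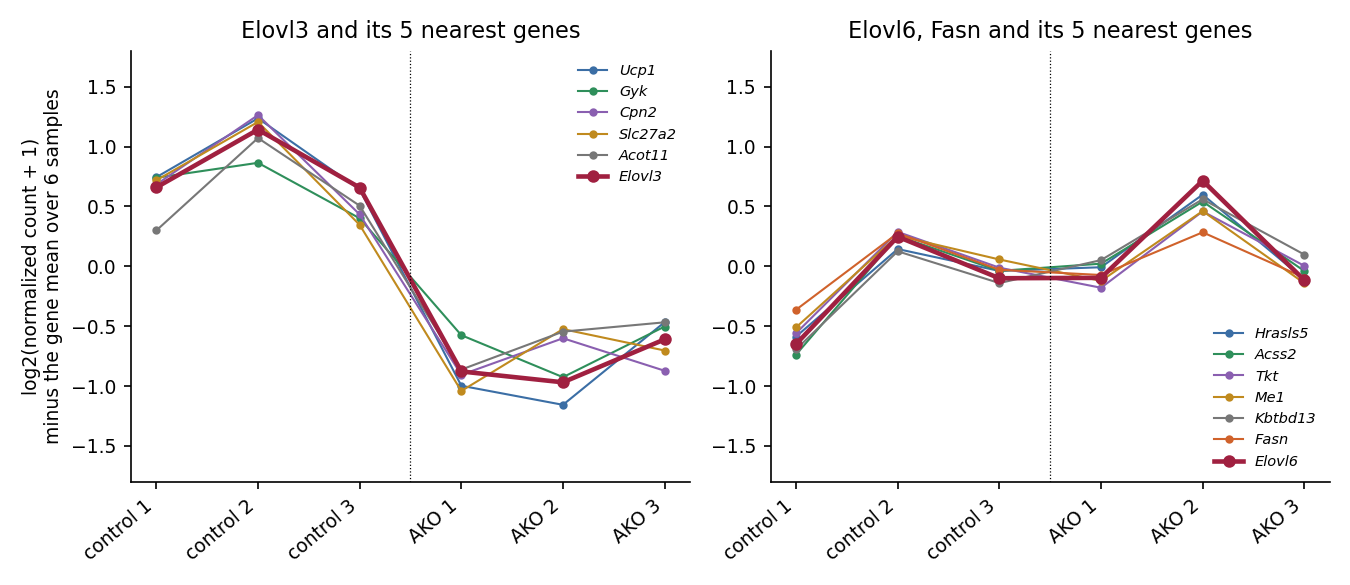
log2(normalized count + 1) minus the mean of each gene over the 6 samples, by sample, for Elovl3 with its 5 nearest genes (left) and for Elovl6 with its 5 nearest genes and Fasn (right). The dotted line parts control from AKO. Elovl3 and Ucp1 run together through both groups at a root mean square difference of 0.12, and Elovl6 peaks in replicate 2 of each group.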

How the data were processed

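The authors aligned reads with STAR to GRCm38 (mm10 in the labels), counted them per gene with featureCounts on GENCODE M25 and ran DESeq2, and the strand setting was not given in the sources used here. The signal that the authors deposited for a gene is its reads over the size factor of the sample. The authors also deposited their own log2 fold changes and p-values, which were not used. Values were whole multiples of 1 read (0.960 to 1.08), and whole reads were recovered for 100% of values (tolerance 0.1), also in control replicate 1. log2(value + 1) was fitted with limma 3.58.1 (R 4.3.3, variance trend) for 13855 genes with a mean of at least 10, with Benjamini-Hochberg adjustment over all of them and a threshold of 0.05. The elongases and gene lists were chosen with earlier results of these data known. Named genes are the 7 elongases, the 3 most abundant members of each list and any member called by limma or DESeq2, and the 5 genes nearest Elovl3, while Hacd4, Mlycd, Cers6, Acsl6, Prdm16, Ebf2 and the genes nearest Elovl6 were chosen after their values were seen. One gene that this rule names is not reported here. Alternatives were pseudocounts of 0.1 and 10, other filters on low values, edgeR 4.0.16, DESeq2 1.42.0 and limma-voom on recovered reads, TMM factors, a replicate block and leaving out each sample. Exon lengths are from GENCODE M21, and coding sequences were aligned with MAFFT 7.526. Any pair of replicates within a group had a chi-square of 9.86 to 20.1 per degree of freedom, above sampling noise. Intervals and p-values measure the spread between 3 pooled samples per group, and whether these came from separate housing or days was not stated.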

Additional observations from a re-analysis of the deposited data

How the results depend on the processing

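Elovl3 kept a log2 fold change between -1.74 and -1.48 over 15 alternatives, and its log2 value minus the median of the other elongases stayed between -2.09 and -1.74 over 10. Its adjusted p from limma was 0.0301 without control replicate 2 and 0.0927 to 0.118 without each of the other samples. The log2 fold changes of Elovl1 (-0.08 to 0.06), Elovl5 (-0.05 to 0.03), Elovl6 (0.06 to 0.54) and Elovl7 (0.37 to 0.72) moved by less than the SD between replicates. Of the 36 list genes that the naming rule gave, Tecr (-0.06 to 0.15), Abcd2 (-0.10 to 0.08) and Nr1d1 (-0.28 to 0.04), none of them called, changed sign with a sample left out, beside Fasn and Me1. List genes outside these 36, such as Prdm16 and Ebf2, were not part of this check. The count of genes called over the whole table, 2 by limma, was 149 with DESeq2 and 6 with at least 10 reads in every sample, and it ranged from 0 to 3 with each sample left out (0 without control replicate 1 or 3 or any 1 AKO replicate). The cause was not tested. DESeq2 called 2 acyl-CoA synthetases, 2 peroxisomal genes, 1 regulator and 10 brown and beige fat genes, where limma called 0, and the stricter filter called 1 of the last. The mean log2 ratio of Elovl3 over Elovl1 turned to -0.49 with the longest transcript, and to -0.13, -0.20 and -0.07 without control replicate 1, 2 or 3 (range -0.20 to 0.21 over the samples left out). The nearest 5 genes to Elovl3 shared 3 to 5 with the main list when a sample was left out. With the replicate number as a block, Elovl3 had an adjusted p of 0.0529 and 2 other genes were called. Samples with the same number were not paired by the labels, and their deviations correlated at 0.14, -0.35 and 0.24, so not every sample correlated best with its own number. Depth limits Elovl2 and Elovl4, each with at most 11 reads in a sample.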

Other observations

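The values of Elovl6 over the 6 samples ran with those of genes that feed fatty acid synthesis. The nearest genes by root mean square difference of centered log2 values, a comparison made after the values of Elovl6 were seen, were Hrasls5, a phospholipid acyltransferase gene at 8.03 to 19.5 normalized counts (0.0815), Acss2, an acetyl-CoA synthetase (0.101), Tkt, the transketolase of the pentose phosphate pathway (0.132), Me1, the malic enzyme (0.135), and Kbtbd13 (0.135). The median over all genes was 0.439. Acly ranked 6, Acaca 10, Fasn 43 and Slc25a1 63 of all tested genes, while Acacb ranked 5970 and Mlycd 10980. Acss2 had 5862, 11645 and 9519 normalized counts in control and 9924, 14218 and 9512 in AKO, with replicate 2 the highest of each group, as for Elovl6. Acly had 19934, 48376 and 32728 in control and 35899, 61727 and 39327 in AKO, so that it differed by more between replicates than between genotypes. Elovl3 did not share this profile with Elovl6 (rank 12665, root mean square difference 1.06). Hrasls5 and Kbtbd13 had few reads, and their place near Elovl6 is the least certain.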
